A study of Homo sapiens with 6 samples.

Results

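The RNA levels of the YAP/TAZ coactivators and their target and partner genes were described in gastric cancer cells that overexpress the *FN1* 3′-UTR and in their controls. The 10 genes were *YAP1*, *WWTR1* (which encodes TAZ), *CYR61*, *CTGF*, *AMOTL2*, *AMOTL1*, *AMOT*, *ANKRD1*, *LATS2* and *AJUBA*, out of 39739 gene rows in the deposited tables. They were chosen by name, with earlier results of the same comparison known, so their differences between the groups are given as a description without a test.

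The cells were HGC27, an established gastric cancer line. RNA-seq covered 3 libraries labelled as FN1 3′-UTR overexpression (HGC27-FN1 3′-UTR) and 3 labelled Control (HGC27-control), 6 in all. Per the study's methods, lentivirus was used to make the overexpressing cells from HGC27 and puromycin to select them. The vector in the control cells, the number of separately infected lines and whether the libraries came from separate cultures are not given in the sources used here, so the spread between libraries may be technical and effects of selection or of 1 line cannot be told apart from those of the *FN1* 3′-UTR.

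The YAP and TAZ proteins do not bind DNA themselves but attach to TEAD transcription factors and switch on genes for adhesion, matrix and growth. In the Hippo pathway, the STK3 and STK4 kinases activate the LATS kinases, which phosphorylate YAP and TAZ and keep them out of the nucleus. The angiomotins (AMOT, AMOTL1 and AMOTL2) also hold YAP and TAZ in the cytoplasm, and several restraining genes, such as *LATS2* and *AMOTL2*, are themselves targets. RNA levels measure neither phosphorylation nor location of the proteins.

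The authors deposited expression as RPKM, in which the reads of a gene are divided by the length of its merged exons in kilobases and scaled to 1000000 reads assigned to genes per library. The libraries held between 16357085 and 37037532 such reads, the shallowest being HGC27-FN1 3′-UTR replicate 1 and the deepest HGC27-control replicate 3. *FN1* itself had 0.777, 0.745 and 0.819 RPKM in overexpressing libraries and 0.543, 0.474 and 0.532 RPKM in the HGC27-control libraries. The summed RPKM of 5 gastric epithelial markers was 2.59 to 2.99 in HGC27-control and 18.2 to 27.0 in HGC27-FN1 3′-UTR libraries. All 5 were higher at an adjusted p under 0.05 in limma, beside 5.62% of all tested genes. *KRT19* reached the 0.1 RPKM minimum of that test in the HGC27-FN1 3′-UTR libraries alone, so its call is not independent support. *EPCAM*, *CDH1*, *KRT18* and *KRT19* were at most 0.257 RPKM in any control library. The summed RPKM of 7 fibroblast markers, of which *COL3A1* had the highest level, was 122 to 140 in HGC27-control and 178 to 181 in HGC27-FN1 3′-UTR libraries, and 4 of the 7 passed the same test, all higher. Endothelial markers summed to at most 0.022 RPKM with *PECAM1* at 0, and the 3 leukocyte marker rows summed to 0.949 to 1.32 RPKM. The part of these markers in the results below was not tested, and in bulk RNA a change in the share of cells cannot be told apart from a change of RNA per cell.

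Stretches around a TEAD motif are shown first, because TEAD factors are the DNA-bound partners of YAP and TAZ. The letters GGAATG, a core of TEAD motifs, were searched on both strands of RefSeq promoters (GRCh38.p14), from 250 bases before to 50 bases after each start site. The letters were found in 14.0% of all 35116 promoters, in 6 of the 12 promoters that matched a member, and in 6 of the 9 members with a promoter. Each stretch is printed 5′ to 3′ on the strand of the gene, with the matched letters in capitals (CATTCC is the same motif on the other strand).
CTGF, minus strand, chr6:131951455-131951482: tggggaGGAATGcgaGGAATGtccctgt
CTGF, minus strand, chr6:131951527-131951550: tcagacggaGGAATGctgagtgtc
ANKRD1, minus strand, chr10:90921293-90921316: accaccaaaGGAATGgccctctca
ANKRD1, minus strand, chr10:90921201-90921224: actgagtctGGAATGaaaattcac
AMOTL2, minus strand, chr3:134374502-134374525: aaactctcaCATTCCtggcatagc
AJUBA, minus strand, chr14:22976887-22976910: aagttggctGGAATGaagccaaag
LATS2, minus strand, chr13:21061563-21061586: gacgcccgtGGAATGccaacaatg
YAP1, plus strand, chr11:102110276-102110299: gagtgtgcaGGAATGtagcaactt

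The *CTGF* promoter held 3 matches, at 169, 104 and 95 bases before the start, and the 2 nearest the start lay within the same short stretch. *ANKRD1* held 2 matches, at 220 and 128 bases before the start. *AMOTL2* had its match at 69 bases and *AJUBA* at 59 bases before the start of 1 of their 2 promoters each. The match of *YAP1* lay 162 bases before its start and that of *LATS2* 10 bases after it. No match was present in the windows of *WWTR1*, *AMOTL1* and *AMOT*, and *CYR61* was not among the promoters used. A match is a description of the letters and not a bound site.

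The letters TGANTCA, with any base at N, are a loose form of the motif of AP-1 factors, which often sit beside TEAD on YAP/TAZ-bound elements. These letters were present in 7.71% of all promoters and among the members in that of *ANKRD1* alone, 195 bases before the start (both strands searched).
ANKRD1, minus strand, chr10:90921267-90921290: tttcttccTGATTCAcatattcag
The CArG box of SRF, a factor that shares several targets with YAP, occurred in 1.29% of all promoters and in 0 of the 12 promoters of the members.

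The coactivator genes differed little between the groups. *YAP1*, on the plus strand of chromosome 11 (chr11:102110461-102233423), had 12.6, 11.8 and 11.7 RPKM in overexpressing libraries against 11.3, 11.99 and 11.9 RPKM in controls. The ranges overlapped, and the group means were 12.03 ± 0.52 and 11.7 ± 0.373 RPKM (SD, n = 3 each). The log2 fold change was 0.04 with a standard error of 0.045 on the scale of log2(RPKM + 0.1), which understates the change of genes with low RPKM.

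*WWTR1*, on the minus strand of chromosome 3 (chr3:149517235-149736714), had 3.12, 3.38 and 2.96 RPKM in HGC27-FN1 3′-UTR and 2.84, 2.67 and 2.93 RPKM in HGC27-control libraries. The groups did not overlap, but the lowest HGC27-FN1 3′-UTR library and the highest control library lay almost side by side. The means were 3.15 ± 0.216 and 2.82 ± 0.132 RPKM (SD, n = 3 each), or 0.16 as a log2 fold change (standard error 0.070). *YAP1* RNA was more abundant per length than *WWTR1* RNA in every library, with a ratio of 3.83 ± 0.309 in HGC27-FN1 3′-UTR and 4.17 ± 0.275 in HGC27-control cells (SD, n = 3 each), and the ranges of the ratio overlapped. The gene row named *TAZ* lies on chromosome X, is tafazzin and not the coactivator, and was not used.

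**Figure D1:**
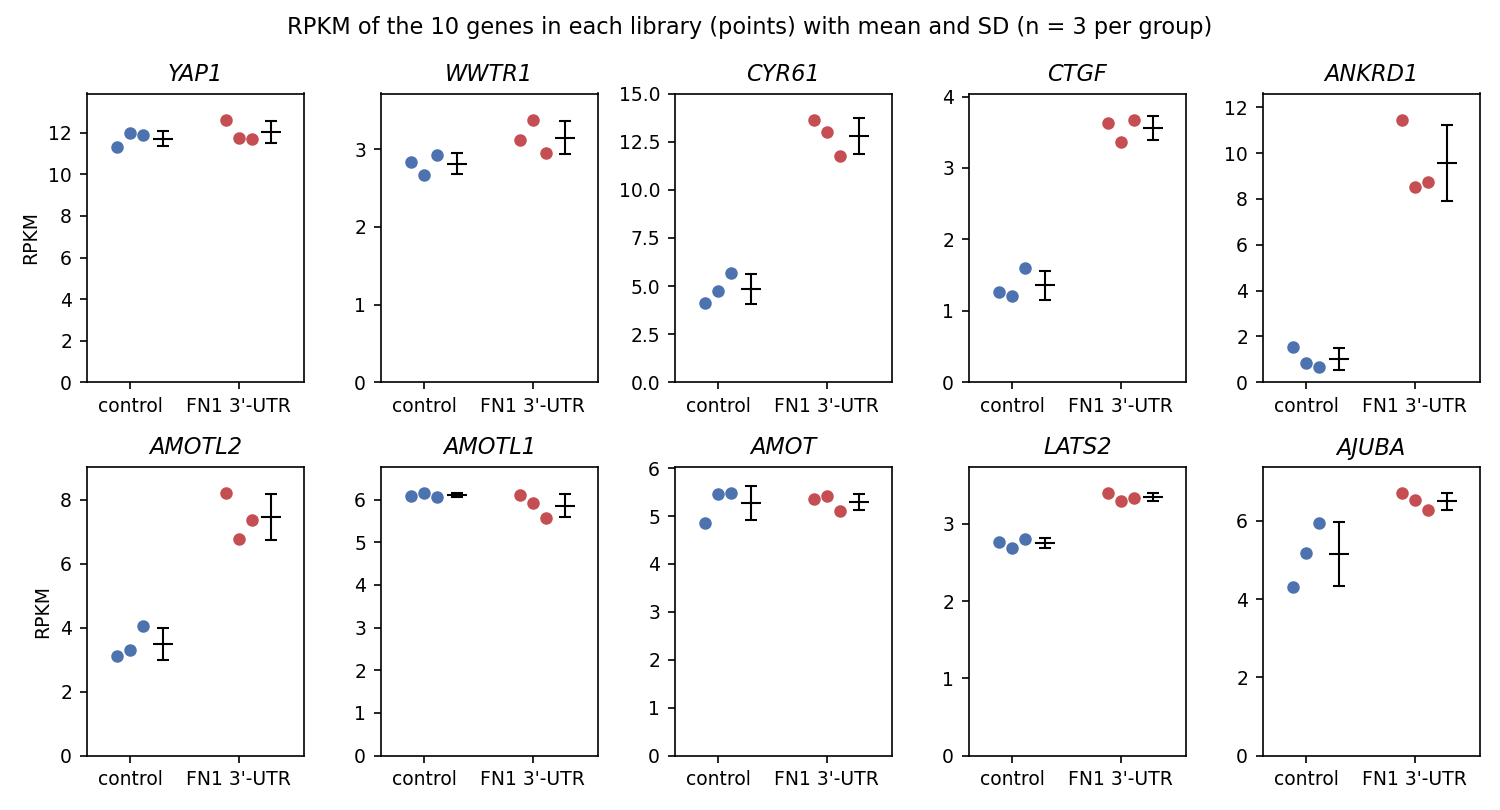
RPKM of each of the 10 genes in each library, one panel per gene with its own axis starting at 0. Points are libraries and the black marks are the mean and SD of 3 libraries per group. *CYR61*, *CTGF*, *ANKRD1* and *AMOTL2* show widely separated groups, while *YAP1*, *AMOTL1* and *AMOT* overlap.

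The direct targets *CYR61*, *CTGF* and *ANKRD1* showed the widest separation. *CYR61*, also named *CCN1*, encodes a secreted matrix protein that binds integrins and lies at chr1:85580761-85583962 on the plus strand. Its level was 13.6, 13.0 and 11.8 RPKM in HGC27-FN1 3′-UTR libraries against 4.10, 4.73 and 5.70 RPKM in HGC27-control libraries. Every HGC27-FN1 3′-UTR library exceeded the highest control by more than the spread within either group. The means were 12.8 ± 0.953 and 4.84 ± 0.802 RPKM (SD, n = 3 each), 2.64-fold apart, with a log2 fold change of 1.39 (standard error 0.12).

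*CTGF*, also named *CCN2*, encodes the connective tissue growth factor, a related secreted matrix protein and a widely used readout of YAP/TAZ activity (chr6:131948176-131951373, minus strand). Its level was 3.63, 3.36 and 3.67 RPKM in HGC27-FN1 3′-UTR libraries, and 1.26, 1.21 and 1.59 RPKM in controls. The groups were well separated, with the highest control at HGC27-control replicate 3. The means were 3.56 ± 0.170 and 1.35 ± 0.208 RPKM (SD, n = 3 each), 2.63-fold apart, with a log2 fold change of 1.34 (standard error 0.11). *CYR61* and *CTGF* kept a similar proportion to each other, since their ratio was 3.61 ± 0.357 in HGC27-FN1 3′-UTR and 3.58 ± 0.336 in HGC27-control cells (SD, n = 3 each).

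*ANKRD1* encodes a nuclear ankyrin repeat protein best known from stressed heart and skeletal muscle (chr10:90912096-90921276, minus strand). Its level was 11.5, 8.50 and 8.74 RPKM in HGC27-FN1 3′-UTR libraries and 1.54, 0.853 and 0.641 RPKM in controls. It had the largest difference of the 10 genes, and the highest HGC27-FN1 3′-UTR value came from replicate 1, the shallowest library. The means were 9.57 ± 1.64 and 1.01 ± 0.469 RPKM (SD, n = 3 each), 9.47-fold apart, with a log2 fold change of 3.19 (standard error 0.29). The control libraries held 68, 52 and 47 *ANKRD1* reads, and the exact 95% Poisson interval of HGC27-control replicate 1, 1.19 to 1.95 RPKM, lay above those of the other control libraries, 0.637 to 1.12 and 0.471 to 0.853 RPKM. These intervals cover counting error only. Among the controls, that library had the highest *ANKRD1* level but the lowest *CYR61*, *AMOTL2* and *AJUBA* levels, and *CYR61*, *CTGF*, *AMOTL2*, *LATS2* and *AJUBA* were each highest in HGC27-control replicate 3, where *ANKRD1* was lowest.

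The angiomotin genes diverged from each other. *AMOTL2* (chr3:134355874-134375479, minus strand), which binds YAP and is also one of its targets, had 8.20, 6.78 and 7.38 RPKM in HGC27-FN1 3′-UTR libraries and 3.12, 3.30 and 4.05 RPKM in HGC27-control libraries. The groups did not overlap, and the means were 2.14-fold apart at 7.45 ± 0.715 and 3.49 ± 0.495 RPKM (SD, n = 3 each). *AMOTL1* (chr11:94706431-94876753, plus strand), a relative found at cell junctions, had 6.10, 5.91 and 5.57 RPKM in HGC27-FN1 3′-UTR and 6.09, 6.15 and 6.06 RPKM in HGC27-control libraries. Its ranges overlapped, and its log2 fold change was -0.06 (standard error 0.046). *AMOT* (chrX:112774503-112840815, minus strand), the founding member of the family, had 5.36, 5.43 and 5.11 RPKM against 4.86, 5.47 and 5.47 RPKM. Those ranges overlapped as well, with a log2 fold change of 0.01 (standard error 0.061) that lay between -0.05 and 0.04 when each library was left out in turn, so it changed sign.

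The family sum was 18.6 ± 0.913 RPKM in HGC27-FN1 3′-UTR and 14.9 ± 0.761 RPKM in HGC27-control cells (SD, n = 3 each). *AMOTL2* made up 41.7%, 37.4% and 40.9% of the family's RPKM in HGC27-FN1 3′-UTR libraries and 22.2%, 22.1% and 26.0% in control libraries. The ratio of *AMOTL2* to *AMOTL1* was above 1 in every HGC27-FN1 3′-UTR library and was below 1 in every control, with means of 1.27 ± 0.109 and 0.573 ± 0.084 (SD, n = 3 each).

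**Figure D2:**
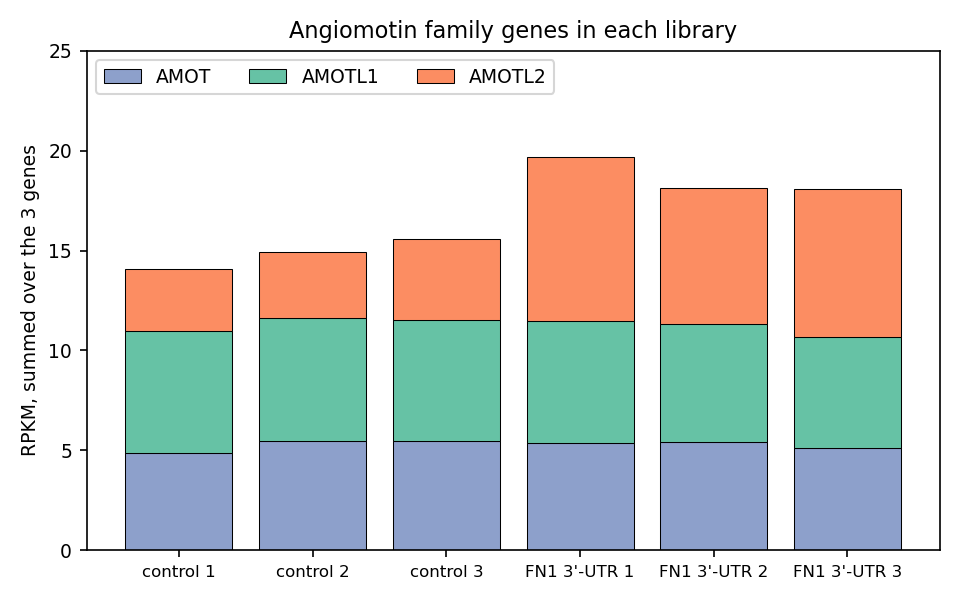
RPKM of *AMOT*, *AMOTL1* and *AMOTL2* stacked for each library, with the sum on the vertical axis starting at 0. The *AMOTL2* layer is thicker in the 3 HGC27-FN1 3′-UTR libraries (6.78 to 8.20 RPKM) than in the 3 controls (3.12 to 4.05 RPKM), while the other layers are of similar height.

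Among the kinases and scaffolds, *LATS2* (chr13:20973032-21061547, minus strand), the kinase that phosphorylates YAP and TAZ, had 3.40, 3.30 and 3.34 RPKM in HGC27-FN1 3′-UTR and 2.76, 2.69 and 2.81 RPKM in HGC27-control libraries. The groups were separate and each was tight, with means of 3.35 ± 0.048 and 2.75 ± 0.060 RPKM (SD, n = 3 each) and a log2 fold change of 0.27 (standard error 0.048). *AJUBA* (chr14:22971174-22982642, minus strand), a LIM domain protein that binds LATS kinases and restrains them at junctions, had 6.71, 6.53 and 6.28 RPKM in HGC27-FN1 3′-UTR and 4.32, 5.19 and 5.95 RPKM in HGC27-control libraries. The lowest HGC27-FN1 3′-UTR library was only just above the highest control library, HGC27-control replicate 3. The means were 6.50 ± 0.216 and 5.15 ± 0.814 RPKM (SD, n = 3 each), with a log2 fold change of 0.34 (standard error 0.11).

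**Figure D3:**
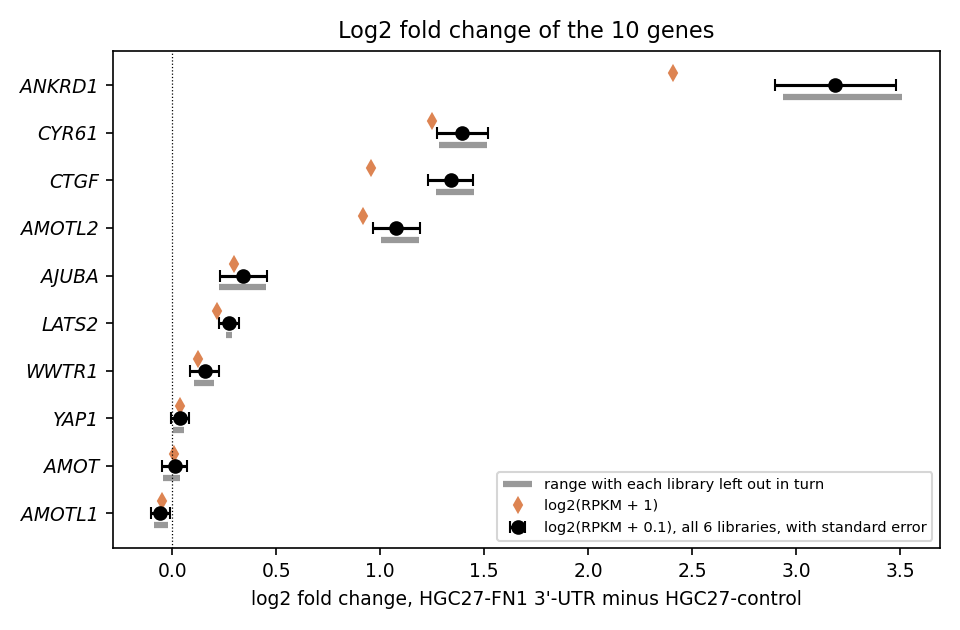
Log2 fold change of the 10 genes, HGC27-FN1 3′-UTR minus HGC27-control, with its standard error (black), the range when each library was left out in turn (grey) and the value on the scale of log2(RPKM + 1) (orange). *ANKRD1* is at 3.19 and *AMOTL1* at -0.06, and the larger pseudocount pulled the values of the 4 highest genes toward 0.

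By group, 7 of the 10 genes had HGC27-FN1 3′-UTR libraries all above the control libraries and 0 had them all below. Over all 23299 tested genes, the groups did not overlap in 36.0% of genes, 14.3% higher and 21.7% lower. Because the members were chosen with this comparison known, nothing is read from that difference. Likewise, 9 of 10 members had a log2 fold change above 0 (43.7% of all tested genes did) and 4 of 10 had one above 1 (2.07% did). With an unadjusted P under 0.05 as well, the criteria of the study, 1.65% of all tested genes were above 1 and 0.815% below -1. The median log2 fold change was 0.31 for the members and -0.04 for all tested genes.

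The order of RNA levels per length was as follows. In HGC27-control cells *YAP1* stood highest, followed by *AMOTL1*, then *AMOT*, *AJUBA* and *CYR61*, whose neighbours in that order overlapped, then *AMOTL2*, *WWTR1* with *LATS2*, and *CTGF* with *ANKRD1*. In HGC27-FN1 3′-UTR cells *CYR61* and *YAP1* overlapped at the top, *ANKRD1* came next, and *CTGF*, *LATS2* and *WWTR1* overlapped in their neighbouring ranges at the bottom. *ANKRD1* thus moved from the last place of 10 to the third. HGC27-FN1 3′-UTR replicate 1 had the highest value of its group for 7 of the 10 genes, and HGC27-control replicate 3 had the highest of its group for 7.

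Exons of 6 members shared bases with another gene row. On the opposite strand these were RP11-864G5.3 with *YAP1* (9.97% of its merged exons), WWTR1-AS1 with *WWTR1* (9.45%), RP11-69I8.3 with *CTGF* (8.34%) and RP11-856F16.2 with *AMOTL1* (4.94%). On the same strand, RPL39P5 covered 3.13% of *AMOTL2* and RP11-298I3.5 0.836% of *AJUBA*. The libraries were strand-specific, but the strand setting of the counting is not given in the sources used here. The pseudogene *YAP1P1* held 0 or 1 read per library.

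Seed matches are shown for 4 of the many miRNAs that came down with the *FN1* 3′-UTR in the study's pull-down, chosen because they were shared between the most enriched miRNAs of HGC27 and of AGS, another gastric cancer line. Their mature sequences in RefSeq (GRCh38.p14) are given with the seed, bases 2 to 8, in capitals, and no 2 of them share a seed.
let-7i-5p: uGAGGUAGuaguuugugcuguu
miR-629-5p: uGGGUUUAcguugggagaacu
miR-423-5p: uGAGGGGCagagagcgagacuuu
miR-296-3p: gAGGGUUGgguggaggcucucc

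Matches to these seeds were searched in the annotated 3′-UTR of 1 transcript per gene (GENCODE release 29, 19114 genes). Of the 10 members, 4 held a match to at least 1 of the 4 seeds. The share of all genes with a match to any of the 4 was not counted, so nothing is read from that number. The miR-629-5p match TAAACCC, present in 6.12% of the 3′-UTRs, occurred once in each angiomotin. That share was not adjusted for length, and these 3′-UTRs held 1828 (*AMOTL2*), 5958 (*AMOTL1*) and 4064 bases (*AMOT*). The stretches were singled out after the matches were seen, because 1 family carries the match in all 3 genes. They are shown with capitals for the match.
AMOTL2, minus strand, chr3:134356761-134356786: ctgtcagtttggtcaTAAACCCtgag
AMOTL1, plus strand, chr11:94871120-94871145: ctgattataaacagaTAAACCCaaat
AMOT, minus strand, chrX:112775417-112775442: tttttatgacaagccTAAACCCtcat
Only *AMOTL2* of these 3 genes had separate groups. The study picked *AMOTL2* from predicted targets of the enriched miRNAs that were also upregulated in this comparison. Its match and its separate groups are therefore not independent evidence. *AMOT* also held 2 let-7i-5p matches (CTACCTC, in 8.26% of 3′-UTRs), and *AJUBA* held 1 miR-423-5p match (GCCCCTC, in 12.9%). The miR-296-3p match CAACCCT, in 7.45% of the 3′-UTRs, occurred in no member. *CYR61*, *CTGF* and *ANKRD1*, the genes with the largest differences, had no match to any of the 4 seeds. A match found here is a description of the letters, and its function was not tested. For *AMOTL2*, the study reported lower levels after transfection of the miRNA whose seed match the gene holds. The study also reported less *AMOTL2* mRNA bound to AGO2, a protein that binds miRNAs, in the overexpressing cells. In its western blots, AMOTL2 protein was raised over control in cells overexpressing the FN1 protein as well. The cause of the *AMOTL2* difference was not tested here.

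The remaining genes of the pathway were tested with limma on log2(RPKM + 0.1), two-sided, with Benjamini-Hochberg adjustment over the 23299 genes with at least 0.1 RPKM in 3 or more libraries. At an adjusted p under 0.05, 13.0% of all tested genes were called, 5.62% higher (1310 genes) and 7.36% lower (1715 genes). Scaling the libraries by median ratios turned that split to 1696 higher and 1331 lower.

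Among the *TEAD* and *VGLL* genes, here called nuclear partners, *TEAD1* was the only 1 of 5 tested genes to pass the test. *TEAD1* encodes a DNA-binding partner of YAP and TAZ and had 4.13, 4.25 and 3.96 RPKM in HGC27-FN1 3′-UTR and 2.98, 3.01 and 3.27 RPKM in HGC27-control libraries. Every HGC27-FN1 3′-UTR library was above every control, and the log2 fold change was 0.41 (limma, adjusted p = 0.00995, and 0.0184 to 0.0493 with each library left out). *TEAD4*, the most abundant of the family, had 13.5 ± 0.734 and 13.1 ± 1.39 RPKM (SD, n = 3 each) in the overexpressing and control cells. *TEAD2* had 7.27 and 7.10 RPKM and *TEAD3* 6.61 and 6.74 RPKM in the same order. *VGLL4*, which competes with YAP for TEAD, had 2.93 and 3.02 RPKM. *VGLL1*, *VGLL2* and *VGLL3* were under the minimum, and 0 genes were lower by limma, also at an unadjusted p under 0.05 and with limma's voom. The sum of the 4 *TEAD* genes was 31.5 ± 0.762 RPKM in HGC27-FN1 3′-UTR and 30.0 ± 1.91 RPKM in HGC27-control cells (SD, n = 3 each).

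Other YAP/TAZ targets were taken from a published signature of 22 genes, less its 5 members already described. Of the other 17 genes, 16 were tested (*NT5E* was under the minimum), and 7 were higher and 0 lower. Of all tested genes, 5.62% were higher and 7.36% lower. At an unadjusted p under 0.05 there were 9 higher and 0 lower, and with limma's voom 10 higher and 0 lower. *NUAK2*, among those 9, reached the 0.1 RPKM minimum in the HGC27-FN1 3′-UTR libraries alone. Its place in the counts and in the median below is therefore not independent support. The median log2 fold change of the 16 genes was 0.25, against -0.04 for all tested genes. The list was chosen with results of these libraries known, so its direction is not independent evidence.

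The largest difference among them was in *TGFB2*, a TGFβ ligand, with 2.504, 2.48 and 2.51 RPKM in HGC27-FN1 3′-UTR libraries and 0.730, 0.649 and 0.708 RPKM in controls. These groups were far apart, with a log2 fold change of 1.71 (limma, adjusted p = 0.000335). *IGFBP3*, which binds insulin-like growth factors, rose from 10.6 ± 0.481 to 30.2 ± 3.18 RPKM (SD, n = 3 each), with 1.50 as its log2 fold change and 0.000479 as its adjusted p from limma. *CCDC80*, a secreted matrix protein, rose from 3.28 ± 0.108 to 9.38 ± 0.327 RPKM (log2 fold change 1.49, adjusted p = 0.000123 from limma). *MYOF*, a membrane repair protein, rose from 0.835 ± 0.0339 to 1.81 ± 0.196 RPKM (log2 fold change 1.03, adjusted p = 0.00326 from limma), and *CRIM1*, a transmembrane protein that binds BMPs, from 5.61 ± 0.0232 to 9.74 ± 0.157 RPKM (log2 fold change 0.78, adjusted p = 0.000306).
*DOCK5*, an activator of Rac, rose more weakly, from 1.86 ± 0.0818 to 2.26 ± 0.0224 RPKM (log2 fold change 0.27, adjusted p = 0.0379 from limma), and *GADD45A*, a stress response gene, from 24.5 ± 1.39 to 28.6 ± 0.441 RPKM (log2 fold change 0.22, adjusted p = 0.0262). The call for *DOCK5* was lost when any of the 6 libraries was left out (adjusted p 0.0781 to 0.103), and that for *GADD45A* in all fits but the one without HGC27-control replicate 3, where it was 0.0132. Of the genes that did not pass, *ASAP1* had 8.53 and 8.09 RPKM, *FOXF2* 4.34 and 4.53 RPKM and *ARHGEF17* 3.67 and 3.06 RPKM in the overexpressing and control cells.

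**Figure D4:**
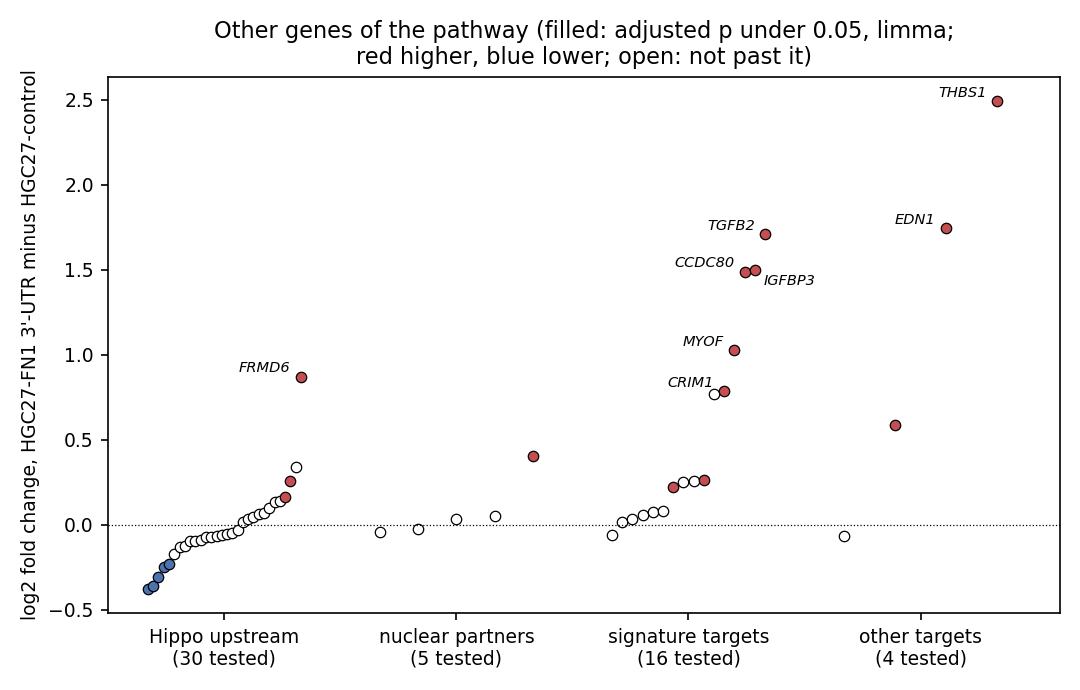
Log2 fold change (HGC27-FN1 3′-UTR minus HGC27-control) of each tested gene of the Hippo upstream, nuclear partner, signature and other target lists, sorted within a list. Filled points passed an adjusted p under 0.05 in limma (red higher, blue lower); 7 of 16 signature genes and 3 of 4 other targets are red, and the Hippo upstream list holds 3 red and 5 blue points.

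Of 6 further targets, 4 were tested and 3 were higher, with 0 lower by limma, at an unadjusted p under 0.05 and with limma's voom. Of all tested genes, 5.62% were higher at an adjusted p under 0.05. This list too was chosen with results of these libraries known, and the study selected *THBS1* from genes upregulated in this comparison. The direction of the list and the p of *THBS1* are therefore not independent evidence. *THBS1*, a matrix glycoprotein, had 2.76, 2.69 and 2.92 RPKM in HGC27-FN1 3′-UTR libraries and 0.391, 0.408 and 0.445 RPKM in controls. The groups were far apart, at a log2 fold change of 2.49 (limma, adjusted p = 0.000127). *EDN1*, the vasoconstrictor endothelin-1, had 11, 15 and 12 reads in HGC27-FN1 3′-UTR libraries and 1, 0 and 1 reads in controls. The ratio after scaling to library depth was 24.5, with a 95% interval of 6.33 to 210 that covers counting error only. *EDN1* reached the 0.1 RPKM minimum in the HGC27-FN1 3′-UTR libraries alone. Its adjusted p of 0.00942 from limma and its place among the 3 higher genes are therefore not independent support. The count of higher genes here fell to 1 without any 1 of the HGC27-FN1 3′-UTR libraries and to 2 without any 1 of the control libraries. In the former fits *EDN1* was under the minimum, which accounts for only part of the fall. *BIRC5*, an inhibitor of apoptosis, had 34.0 and 35.6 RPKM in the overexpressing and control cells and did not pass. *INHBA* and *AREG* were under the minimum.

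Of the CCN paralogs of *CYR61* and *CTGF*, *NOV* was tested and rose from 8.78 ± 0.583 to 13.3 ± 0.482 RPKM (SD, n = 3 each), with a log2 fold change of 0.60 and, from limma, an adjusted p of 0.00303. *NOV*, also a secreted matrix protein, was higher in all 3 HGC27-FN1 3′-UTR libraries than in any control, and the adjusted p stayed between 0.00670 and 0.0204 with each library left out. *WISP2* had 0 to 3 reads per library and *WISP3* 0 or 1 read. *WISP1* was not analysed here.

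The upstream genes that regulate LATS, YAP and TAZ moved in both directions, with 3 higher, 5 lower and 22 not past the threshold among 30 tested of 31. At the same threshold, 5.62% of all tested genes were higher and 7.36% lower. The median log2 fold change of the upstream genes was -0.06, close to that of all tested genes. *FRMD6*, a membrane-linked activator of the pathway, rose from 1.67 ± 0.0397 to 3.14 ± 0.0745 RPKM (SD, n = 3 each), with a log2 fold change of 0.87 and, from limma, an adjusted p of 0.00082. *WWC1* (also called KIBRA, a partner of NF2) had 7.996 and 6.68 RPKM in overexpressing and control cells with an adjusted p of 0.0174, and its paralog *WWC2* had 13.2 and 11.8 RPKM with 0.0493.

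Lower were *TAOK2*, a kinase that acts on STK3 and STK4 (13.0 ± 0.586 to 9.97 ± 0.06 RPKM, adjusted p = 0.00449 from limma), and *TP53BP2*, a p53-binding protein (16.4 ± 0.353 to 13.8 ± 0.368 RPKM, adjusted p = 0.00915). *LIMD1* (1.997 to 1.53 RPKM), which like *AJUBA* is a LIM domain protein that binds LATS kinases, *RASSF1* (5.02 to 4.05 RPKM), a scaffold for the STK kinases, and *BTRC* (7.10 to 6.03 RPKM), a ubiquitin ligase subunit for YAP and TAZ, were also lower. The log2 fold change was -0.36 for *LIMD1* and 0.34 for *AJUBA*, which was not tested. The kinase core and its activator were singled out after their values were seen, without *LATS2*, a member at a log2 fold change of 0.27. These genes, *STK3*, *STK4*, *SAV1*, *LATS1*, *MOB1A*, *MOB1B* and *NF2*, had log2 fold changes between -0.09 and 0.14. They did not pass (adjusted p 0.195 to 0.809 from limma). The groups did not overlap for *SAV1* (higher) and for *MOB1A* and *MOB1B* (lower), as in 36.0% of all tested genes. *LATS1*, the paralog of *LATS2*, had 1.49 ± 0.0648 and 1.44 ± 0.0456 RPKM (SD, n = 3 each) in overexpressing and control cells, with overlapping ranges. *MAP4K4*, *FAT1* and *TAOK3*, the most abundant genes that did not pass, had 28.3, 8.77 and 8.01 RPKM in HGC27-FN1 3′-UTR cells and 30.2, 9.16 and 8.43 RPKM in controls.
The number of higher upstream genes fell to 1 without HGC27-FN1 3′-UTR replicate 1 or 2 or HGC27-control replicate 2. The number of lower ones fell to 3 without HGC27-FN1 3′-UTR replicate 1 or 2 or HGC27-control replicate 3, and to 2 without HGC27-FN1 3′-UTR replicate 3 or HGC27-control replicate 2. *WWC2* was not called in any fit with 1 library left out (adjusted p 0.0698 to 0.140), *WWC1* was called in 3 of 6 such fits, *LIMD1* and *BTRC* in 2 and *RASSF1* in 1, while *FRMD6*, *TAOK2* and *TP53BP2* were called in all 6.

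The TEAD letters GGAATG were searched in the same way in the promoters of these lists. They occurred in 5 of 13 promoters of signature genes, 2 of 6 of further targets, 4 of 33 of upstream genes and 1 of 11 of nuclear partners, beside 14.0% of all promoters.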

How the data were processed

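RNA of overexpressing and control HGC27 cells (3 libraries each) was sequenced by the authors as strand-specific mRNA libraries. Per the submitters' processing notes, Trimmomatic 0.36, STAR 2.5.3a, featureCounts and Subread 1.5.1 were used with GRCh38; the annotation release, strand setting and handling of duplicates are not given in the sources used here. The deposited values are RPKM, normalized by the authors to 1000000 reads assigned to genes in each library. In the 39739 rows, 28 gene names had been turned into dates. Reads were recovered as whole multiples of 1 read (100% of values within 0.05 reads) and gave the depth.

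Groups were taken from the labels. The test, limma 3.58.1 (R 4.3.3) with a trend in the prior variance and no covariate beside group, was run on log2(RPKM + 0.1) of the genes that reached 0.1 RPKM in at least 3 libraries. p-values measure the spread between these libraries only. The members and gene lists were chosen with earlier results of these data known, so members carry no test. Named outside them are *TEAD1* to *TEAD4*, from each list up to 6 genes past the adjusted p per direction by size and up to 3 others by mean RPKM, and the CCN paralogs; 1 gene under this rule is not reported here. The fit was tested on simulated data. Alternatives were a pseudocount of 1, no filter, a mean RPKM of at least 1, median-ratio scaling, limma's voom on recovered reads with TMM factors, the replicate number as a block, and each library left out. Python 3.11.15 with numpy 2.4.6, pandas 2.3.3 and, for figures, matplotlib 3.10.9 was used.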

Additional observations from a re-analysis of the deposited data

How the results depend on the processing

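A pseudocount of 1 lowered the log2 fold change of 4 of the 10 members by more than the spread between libraries, to 2.41 for *ANKRD1*, 0.96 for *CTGF*, 0.92 for *AMOTL2* and 0.21 for *LATS2*, and all other settings left the 10 members within that spread. With each library left out in turn, the lowest and highest log2 fold changes were 2.94 and 3.51 for *ANKRD1*, 1.28 and 1.52 for *CYR61*, 1.27 and 1.45 for *CTGF*, and 1.004 and 1.19 for *AMOTL2*. Among all tested genes, voom gave 2705 higher, a pseudocount of 1 gave 64 higher and 11 lower at the study's criteria (absolute log2 fold change above 1, unadjusted P under 0.05; otherwise 385 and 190), and a mean RPKM of at least 1 gave 95 and 38, and 1 higher gene among the further targets. Leaving out 1 library gave 501 to 927 higher and 470 to 1015 lower, 240 to 435 and 142 to 274 at the study's criteria, 1 to 2 higher and 2 to 4 lower upstream genes, and 1 to 2 higher further targets. Under a replicate block, the counts were 564 higher and 598 lower for all genes, 1 and 2 for the upstream genes and 0 higher nuclear partners, since the adjusted p of *TEAD1* from limma was then 0.0529. Same-numbered libraries had deviations that correlated at 0.0024, 0.021 and 0.010, so the labels' numbers gave no pairing, although each correlated best with its own number, a hint from the data only. The cause of these moves was not tested, apart from fewer libraries or genes entering a fit.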
